A study of Homo sapiens with 10 samples.

Results

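The libraries compared here were 2 of 12Z cells given IL1β with 10 µM CDD-2728 and 2 of 12Z cells given IL1β alone, 4 of the 10 libraries of the study, and they were chosen by the treatment written in their labels. 12Z is an established, immortalized epithelial line derived from peritoneal endometriosis, the growth of endometrium-like tissue outside the uterus. All cells were grown in medium with 10% serum and starved overnight in 2% charcoal-stripped serum. DMSO, the vehicle, or CDD-2728, which the series describes as an inhibitor of the kinase JNK, was added 30 min before IL1β (10 ng/ml, 6 h). The vehicle group (2 libraries) had DMSO and no IL1β, the 1 µM group (2 libraries) had IL1β with 1 µM CDD-2728, and the remaining 2 libraries had IL1β with 1 µM CDD-3013. No group had an inhibitor without IL1β, so values at 10 µM describe the compound and the cytokine together. A single cell line was used, and no label states that both samples of a group came from separate cultures, so p-values measure the spread between these samples, which may be technical.

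JNK, the c-Jun N-terminal kinase, is a stress-activated MAP kinase that IL1β and other cytokines switch on through a cascade of upstream kinases. It phosphorylates JUN, a subunit of the transcription factor AP-1, which binds its target promoters as dimers of JUN, FOS and ATF family proteins and drives genes of inflammation, proteolysis and cell migration, its own gene JUN among them. IL1β also activates NF-κB and the other MAP kinases, ERK and p38, and feedback genes such as the DUSP phosphatases and Sprouty proteins limit these arms. A different set of programmes answers to stress, among them the integrated stress response through the factor ATF4, the heat shock response, the NRF2 response to oxidants and p53.

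The 4 libraries held 16312600 to 18261624 counts, and mitochondrially encoded genes took 3.19% to 3.44% of them. Of 10 housekeeping genes 1 was called different between the groups, YWHAZ (log2 fold change -0.41 ± 0.08, SE), and the others lay at up to 0.23. Epithelial markers summed to 9036 to 9147 CPM (counts scaled to library size) with IL1β and 8156 to 8777 CPM at 10 µM. The keratin KRT8 was the most abundant of them, while the epithelial adhesion molecule EPCAM was at 0 counts in the IL1β group and at a mean of 0.119 CPM at 10 µM. The cells also carried stromal markers (7143 to 7401 and 6618 to 6921 CPM) and mesothelial markers (1080 to 1082 and 917.5 to 956.7 CPM). Immune markers summed to 27.5 to 31.7 CPM with IL1β and 28.8 to 31.0 CPM at 10 µM, with 8 of 17 at 0 counts in each group. Endothelial markers summed to 28.72 to 28.73 CPM and 60.4 to 66.6 CPM, and among them KDR, a VEGF receptor, was at means of 13.7 and 46.1 CPM. In RNA from a whole culture, fewer cells that express a gene and less RNA per cell cannot be told apart.

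At 10 µM JUN mRNA was lower than with IL1β alone, and the lists of growth factors, metalloproteinases and mitotic genes held more falls than rises. The acute-phase list and the list of ATF4 targets held more rises than falls. Of 15740 tested genes, 2454 (15.6%) were called higher and 2505 (15.9%) lower than with IL1β alone (edgeR quasi-likelihood test, adjusted p under 0.05). By at least 2-fold, 622 (3.95%) were higher and 259 (1.65%) lower, or 238 and 115 where only genes reaching 5 CPM in 2 or more libraries were tested. The 622 were of low abundance, with a median of 1.1 CPM under IL1β and 2.93 CPM at 10 µM, against 17.5 and 18.3 CPM over all tested genes. The 259 had medians of 3.99 and 1.58 CPM, and 64.9% of them were protein-coding against 82.3% of all tested genes. The median log2 fold change of all tested genes was 0.01. Of the calls 49.5% were higher with TMM scaling and 61.7% with library totals (3080 higher, 1913 lower). Without IL1β replicate 1 the counts fell to 1567 higher and 1638 lower, and without IL1β replicate 2 the higher count was 1616. Both 10 µM libraries lay above both IL1β libraries in 34.2% of tested genes and below them in 33.6%.

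The kinases and scaffolds of the JNK cascade went both ways. Of 25 tested genes 5 rose and 6 fell (beside 15.6% and 15.9% of all tested genes), with a median log2 fold change of -0.09. MAPK8, which encodes JNK1, was at 32.1 and 35.6 CPM with IL1β and at 34.7 and 33.0 CPM at 10 µM (0.00 ± 0.11, adjusted p = 0.988), and the groups overlapped. MAPK9 (JNK2) was at -0.27 ± 0.09 (adjusted p = 0.0132), a call lost without each of the 4 libraries in turn (adjusted p = 0.0582 to 0.0919) and with library totals (adjusted p = 0.0525). MAPK10 (JNK3), at 1.34 and 0.564 CPM with IL1β, reached 2.77 and 2.27 CPM at 10 µM (1.38 ± 0.38), and its call was lost without IL1β replicate 2 (adjusted p = 0.117) or 10 µM replicate 1 (adjusted p = 0.0636). SH3RF1, which encodes the JNK scaffold POSH, fell by 0.72 ± 0.10, and TAB2, an adaptor of the kinase TAK1, by 0.51 ± 0.08. MAP3K8, an upstream kinase of the ERK arm, rose by 0.92 ± 0.11. The count of members that fell was 2 without IL1β replicate 2 and 3 without each of the other 3 libraries.

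JUN fell to below its level without IL1β. It was at 308 and 324 CPM with IL1β and at 76.5 and 86.6 CPM at 10 µM, with 165 and 169 CPM at 1 µM and 132 and 146 CPM in vehicle (JUN, ENSG00000177606.8, chr1:58780788-58784327, minus strand, GRCh38). Both 10 µM libraries were below every other library of these 4 groups. The fall was 3.88-fold (log2 fold change -1.96 ± 0.08, adjusted p = 3.87e-15), and JUN also lay below vehicle (-0.77 ± 0.08) and below the 1 µM group (-1.03 ± 0.08, adjusted p = 1.07e-09). JUND, a constitutive JUN family member, was at 377 and 355 CPM with IL1β and 230 and 241 CPM at 10 µM (-0.63 ± 0.08).

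The whole list of AP-1 and related bZIP factors, which dimerize with each other, went both ways. Of 19 tested 7 rose (36.8%) and 5 fell (26.3%), beside 15.6% and 15.9% of all tested genes, with a median of 0.04. CREB5, a partner of JUN, was at 16.7 and 18.8 CPM with IL1β and 2.4 and 3.4 CPM at 10 µM (-2.62 ± 0.23), close to the 2.95 and 3.57 CPM of vehicle (-0.17 ± 0.26, adjusted p = 0.642). FOS, which forms the classical AP-1 dimer with JUN, was at 2.52 and 1.69 CPM with IL1β and 9.44 and 11.1 CPM at 10 µM, a 4.82-fold rise (2.27 ± 0.23, adjusted p = 3.58e-08). JUNB went from 97.4 and 108 CPM to 200.4 and 248 CPM (1.13 ± 0.10). FOSL1 (-0.19 ± 0.16) and ATF3 (0.00 ± 0.12) did not pass the test, and their libraries overlapped. The count of members that rose was 4 without IL1β replicate 2 or 10 µM replicate 2, and the count that fell was 3 without IL1β replicate 1 or 10 µM replicate 2.

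The 12 largest falls, among genes of at least 2 CPM with libraries apart, were of SERPINB2, the receptor tyrosine kinase gene ROS1, DUSP8, the proteases MMP3 and MMP13, the matrix glycoprotein TNC, FILIP1L, CREB5, MIR155HG (the host transcript of miR-155), the keratin KRT34 and the growth factors PDGFB and HBEGF. They were chosen on the IL1β and 10 µM libraries, so their levels in the vehicle and 1 µM groups are given beside these as a description. SERPINB2, the plasminogen activator inhibitor PAI-2, was at 90.5 and 93.5 CPM with IL1β, 69.9 and 64.4 CPM at 1 µM and 3.36 and 5.67 CPM at 10 µM. Its level at 10 µM was 20.6-fold under that with IL1β (-4.36 ± 0.16, adjusted p = 2.74e-15) and still above the 1.57 and 1.69 CPM of vehicle (1.46 ± 0.25). DUSP8, a phosphatase that acts on JNK and p38, was at 59.3 and 59.6 CPM with IL1β and 4.27 and 5.49 CPM at 10 µM, 12.2-fold lower (-3.61 ± 0.15), and vehicle had 23.3 and 20.9 CPM. FILIP1L, a regulator of cell migration, fell from 253 and 272 CPM to 42.8 and 41.7 CPM (-2.64 ± 0.09), below the 74.3 and 73.4 CPM of vehicle. ROS1 rested on 7 counts at 10 µM against 121 with IL1β, a ratio of 18.1 with a 95% interval of 8.54 to 46.1 that covers counting error only.

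Promoters of 5 genes described here, chosen after their values were seen, are printed because they hold the letters that the AP-1, CRE, C/EBP-ATF or heat shock factors are known to bind. Each is the 250 bases before the start of the gene in RefSeq (GRCh38.p14), 5′ to 3′ on the strand of the gene. Capitals mark matches, on either strand, to TGANTCA (AP-1), TGACGTCA (CRE, bound by ATF and CREB dimers), TGATGNAA (C/EBP-ATF) or the heat shock element. DUSP8 (chr11:1572272-1572521, minus strand) holds CRE letters at -118 and -74 from the start, SERPINB2 (chr18:63887455-63887704, plus) AP-1 letters at -102, and CXCL8 (chr4:73740319-73740568, plus) AP-1 letters at -137. CHAC1 (chr15:40953221-40953470, plus), which rose, holds C/EBP-ATF letters at -209. HSPA6 (chr1:161524290-161524539, plus), which also rose, holds heat shock letters at -74 and AP-1 letters at -244 and -139. CHORDC1, a chaperone partner that fell, holds heat shock letters at -60, -55 and -50 and is not printed. The match at -139 in HSPA6 lies within a match to TGACNNNGC, the antioxidant element.
DUSP8: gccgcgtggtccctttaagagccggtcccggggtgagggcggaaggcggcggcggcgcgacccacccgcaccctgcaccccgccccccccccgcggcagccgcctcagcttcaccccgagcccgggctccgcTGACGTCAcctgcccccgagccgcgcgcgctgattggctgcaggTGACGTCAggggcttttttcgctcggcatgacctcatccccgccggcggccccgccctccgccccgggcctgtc
SERPINB2: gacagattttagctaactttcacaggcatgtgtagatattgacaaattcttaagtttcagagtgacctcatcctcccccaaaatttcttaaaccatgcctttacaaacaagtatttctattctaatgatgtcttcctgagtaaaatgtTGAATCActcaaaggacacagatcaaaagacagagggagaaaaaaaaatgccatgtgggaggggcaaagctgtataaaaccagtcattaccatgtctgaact
CXCL8: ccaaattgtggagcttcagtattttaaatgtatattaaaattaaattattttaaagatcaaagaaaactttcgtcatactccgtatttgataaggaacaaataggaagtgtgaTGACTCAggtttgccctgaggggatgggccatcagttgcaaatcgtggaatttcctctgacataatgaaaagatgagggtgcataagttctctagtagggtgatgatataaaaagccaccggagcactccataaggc
CHAC1: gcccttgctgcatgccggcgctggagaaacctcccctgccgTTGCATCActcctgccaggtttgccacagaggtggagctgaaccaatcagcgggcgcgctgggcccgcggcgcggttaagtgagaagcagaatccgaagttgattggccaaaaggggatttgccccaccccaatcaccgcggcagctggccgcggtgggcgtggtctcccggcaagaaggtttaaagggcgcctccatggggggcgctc
HSPA6: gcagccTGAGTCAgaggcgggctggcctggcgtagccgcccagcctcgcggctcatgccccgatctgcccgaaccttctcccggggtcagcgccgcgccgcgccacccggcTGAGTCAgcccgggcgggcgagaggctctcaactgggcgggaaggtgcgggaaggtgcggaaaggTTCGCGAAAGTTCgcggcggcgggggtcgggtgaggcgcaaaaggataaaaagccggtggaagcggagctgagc
In windows of 250 bases before to 50 after the start, TGANTCA was found in 17 of 155 genes called lower by at least 2-fold (11%), 28 of 405 called higher by at least 2-fold (6.91%), 4.79% of all tested genes with a window and 7.76% of all promoters in the table. Over all genes called lower, of any fold, the share was 5.23%, and over all called higher 4.7%. In the integrated stress response list, which mostly rose, it was 4 of 36 (11.1%). TGACGTCA was found in 3.23%, 1.98%, 3.31% and 1.98% in that order of the first 4 sets. TGATGNAA was in 8 of 36 promoters of the integrated stress response list (22.2%), 2.47% of genes higher and 1.29% of genes lower by at least 2-fold, 1.67% of all tested genes and 3.67% of all promoters. TGACNNNGC was in 30.6% of that list, 15.2% of all tested genes and 13.6% of all promoters. The heat shock element was in 0.645% of genes lower and 0.741% of genes higher by at least 2-fold, and in 0.321% of all tested genes and 0.487% of all promoters. A match is a description of letters, and no binding was measured.

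Growth factors of the EGF, FGF, PDGF and VEGF families gave more falls than rises. Of 16 tested, 8 fell (beside 15.9% of all tested genes) and 4 rose, with a median log2 fold change of -0.55, which ranged from -0.81 to -0.07 over the processing alternatives. HBEGF, a ligand of the EGF receptor, was at 150.3 and 155 CPM with IL1β, 48.8 and 50.5 CPM at 1 µM, 27.1 and 27.9 CPM at 10 µM and 48.2 and 54.5 CPM in vehicle. The 10 µM libraries were the lowest of these 4 groups, 5.54-fold below IL1β (-2.47 ± 0.10, adjusted p = 7.58e-16). PDGFB, a mitogen of mesenchymal cells, went from 40.1 and 36.9 CPM to 6.45 and 7.4 CPM (-2.48 ± 0.14), under the 30.2 and 32.3 CPM of vehicle. FGF2 went from 638 and 559 CPM to 280.1 and 269 CPM (-1.12 ± 0.08), with 573 and 634 CPM at 1 µM. The angiogenic ligands parted: VEGFC, of lymphatic vessels, fell by 0.96 ± 0.09, and VEGFA rose from 59.4 and 63.5 CPM to 104 and 114 CPM (0.83 ± 0.09).

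Feedback genes of the MAP kinases also parted, with 6 of 19 tested phosphatase and Sprouty genes higher (31.6%) and 5 lower (26.3%, median 0.05). The shares of all tested genes were 15.6% and 15.9%. The ERK phosphatase DUSP6 was at 6.09 and 6.46 CPM with IL1β and 18.3 and 22.8 CPM at 10 µM (1.71 ± 0.16, adjusted p = 8.86e-09). SPRY4, a Sprouty inhibitor of growth factor signalling, rose from 12.7 and 8.84 CPM to 37.6 and 40.1 CPM (1.84 ± 0.14). DUSP5, a nuclear ERK phosphatase, rose by 1.37 ± 0.14. Each of these 3 genes had both 10 µM libraries above every library of the IL1β, 1 µM and vehicle groups. DUSP1, a phosphatase of JNK and p38, was at -0.42 ± 0.11 (adjusted p = 0.00763), a call lost without IL1β replicate 2 or either 10 µM library (adjusted p = 0.0569 to 0.0746). The count of members that fell was 3 without IL1β replicate 1 or 10 µM replicate 1 and 2 without 10 µM replicate 2. Of 20 immediate-early genes 9 rose and 4 fell, with a median of 0.25: ZFP36, which destabilizes cytokine mRNA, rose by 1.40 ± 0.13, MYC by 0.41 ± 0.09, and EGR1 stood at -0.68 ± 0.34 (adjusted p = 0.132).

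The proteolysis and matrix lists held more falls than rises, where 15.9% of all tested genes fell and 15.6% rose. Of 26 tested metalloproteinases, ADAM proteases and inhibitors 12 fell (46.2%) and 4 rose (median -0.22), with 2 higher without IL1β replicate 1 or 10 µM replicate 2. MMP1, the interstitial collagenase, was at 16.7 and 14.2 CPM with IL1β, 20.3 and 19.0 CPM at 1 µM and 7.09 and 5.97 CPM at 10 µM (-1.24 ± 0.15). The 10 µM libraries lay near the 4.84 and 6.23 CPM of vehicle, and the test between the doses gave -1.59 ± 0.15 (adjusted p = 4.76e-08). MMP13, collagenase 3, had 88 counts with IL1β and 12 at 10 µM (ratio 7.7, counting interval 4.19 to 15.5). Its level at 1 µM, 6.7 and 6.17 CPM, was above the 2.96 and 2.2 CPM of IL1β alone and 4.22 ± 0.47 on the log2 scale above that at 10 µM. The stromelysins MMP3 (111 counts with IL1β and 10 at 10 µM, ratio 11.6, 6.1 to 25) and MMP10 (36 and 3 counts, ratio 12.6, 3.98 to 63.9) were lower, as were the gelatinase MMP9 (-1.33 ± 0.18) and the inhibitor TIMP3 (-0.90 ± 0.09).

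None of 11 tested plasminogen activators and serpins rose and 6 fell (54.5%, median -0.37), beside 15.9% of all tested genes that fell. The tissue activator PLAT fell by 1.16 ± 0.09.

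Of 33 matrix and matricellular genes 13 fell (39.4%) and 5 rose (15.2%, median -0.10), beside 15.9% and 15.6% of all tested genes. TNC, tenascin C, a matrix glycoprotein of wounds and inflamed tissue, was at 562 and 623 CPM with IL1β, 285 and 327 CPM at 1 µM and 86.9 and 102 CPM at 10 µM. The 10 µM libraries were close to the 77.4 and 79.2 CPM of vehicle and 6.27-fold below IL1β (-2.65 ± 0.08, adjusted p = 6.2e-16). The collagen crosslinker LOX fell by 0.93 ± 0.08 and COL1A1 by 0.55 ± 0.09. THBS1, thrombospondin 1, went from 340.1 and 338.5 CPM to 518 and 519.5 CPM (0.61 ± 0.08). The count that rose was 3 without each of the 4 libraries in turn. Integrins and adhesion molecules gave 9 falls and 3 rises of 21 (median -0.07), with CD44, the hyaluronan receptor, at -0.85 ± 0.08, ITGA5 at -0.69 ± 0.08 and ITGB8 at -1.14 ± 0.09. Among adhesion molecules that bind leukocytes, VCAM1 fell by 0.64 ± 0.08 and ICAM1 rose by 0.62 ± 0.08.

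**Figure D1:**
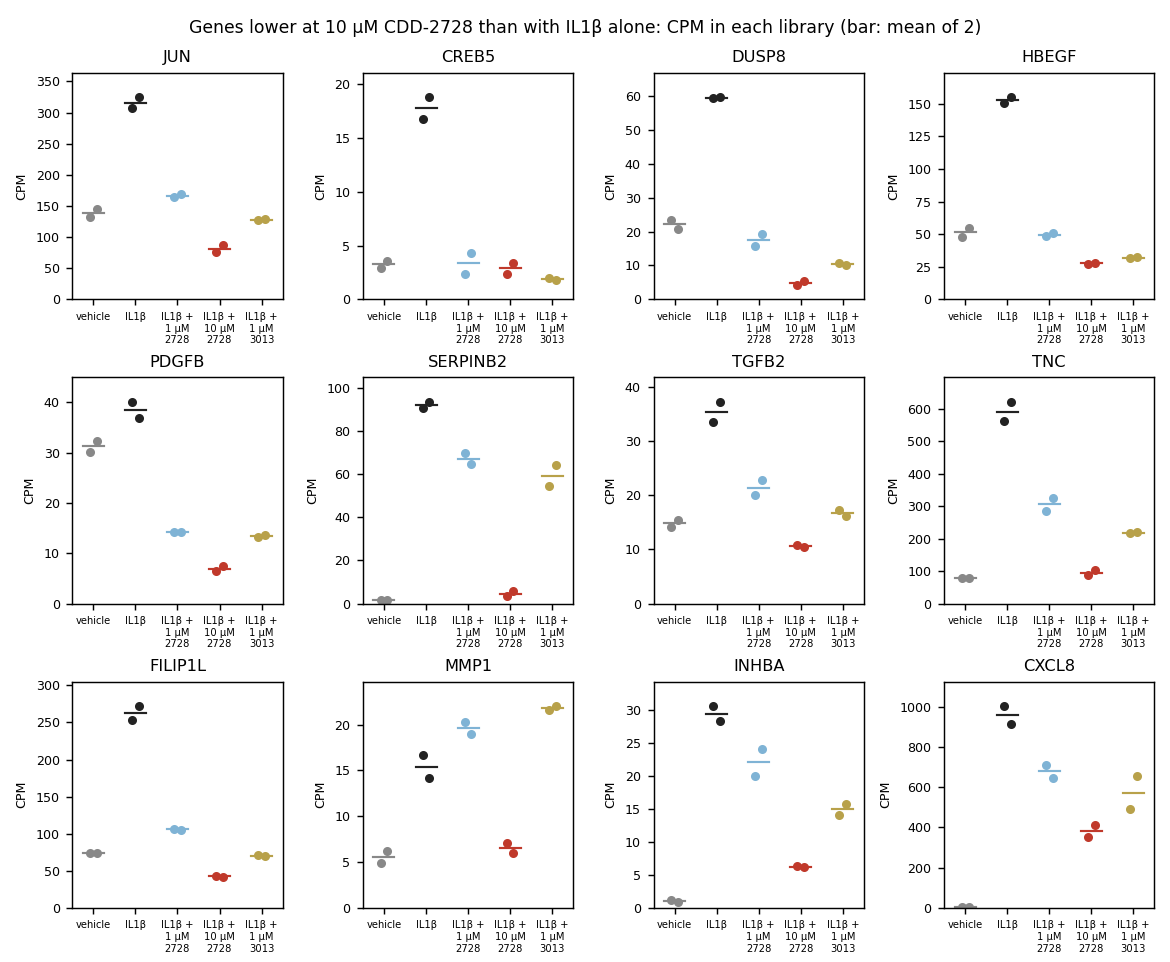
Each panel is 1 gene, the y axis is CPM from 0 on a linear scale, and the 2 points of each treatment group on the x axis are its libraries, with a bar at their mean. In every panel both 10 µM libraries lie below both IL1β libraries; in those of JUN, DUSP8, HBEGF, PDGFB, TGFB2 and FILIP1L they also lie below both vehicle libraries.

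Genes of the cytoskeleton and of the Hippo pathway held more falls than rises, where 15.9% of all tested genes fell and 15.6% rose. Of 26 tested SRF/MRTF targets 11 fell and 2 rose (median -0.10; 1 rose without either IL1β library and 0 without 10 µM replicate 1), though 7 fell with library totals and without IL1β replicate 1, IL1β replicate 2 or 10 µM replicate 1. ZYX, a focal adhesion protein, fell by 0.76 ± 0.08, PDLIM7, an actin-associated adaptor, by 0.98 ± 0.08, and the crosslinker ACTN1 by 0.48 ± 0.08. ACTB, cytoplasmic actin, was at 6137 and 6686 CPM with IL1β and 6217 and 6716 CPM at 10 µM (0.01 ± 0.08). Of 26 YAP/TEAD targets 11 fell and 3 rose (median -0.13), with 5 higher without a filter or with length and GC offsets. AJUBA, an adaptor that inhibits the kinases LATS, went from 161 and 162 CPM to 63.7 and 54.9 CPM (-1.44 ± 0.09), under the 216 and 218 CPM of vehicle. CCN2, often used as a YAP readout, rose by 0.72 ± 0.10.

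Chemokines did not move together. CXCL8, the interleukin 8 gene (chr4:73740506-73743716), was at 1004 and 914 CPM with IL1β, 711 and 646 CPM at 1 µM and 352 and 411 CPM at 10 µM, 2.51-fold below IL1β (-1.33 ± 0.12, adjusted p = 2.19e-06). It remained far above the 2.12 and 1.74 CPM of vehicle. CXCL6, a further neutrophil attractant, went from 922 and 876 CPM to 423 and 469.6 CPM (-1.01 ± 0.08), and CXCL2 from 112 and 121 CPM to 238 and 246 CPM (1.06 ± 0.08). The monocyte attractants parted in the same way, with CCL2 higher at 489 and 559.5 CPM against 320.3 and 336 CPM (0.67 ± 0.08) and CCL7 lower (-1.25 ± 0.14). CCL20, which attracts CCR6-bearing cells, rose by 1.06 ± 0.15. CCL5 was at -0.46 ± 0.15, a call lost without IL1β replicate 1 or 10 µM replicate 1 (adjusted p = 0.209 and 0.277).

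Cytokines of the IL6 family were likewise divided, with 7 of 19 tested members and relatives higher and 5 lower (median 0.21; 4 higher without IL1β replicate 2). The relatives counted there include colony factors and interleukins. The shares were 36.8% higher and 26.3% lower, beside 15.6% and 15.9% of all tested genes. LIF, which acts on the uterine lining, was at 337 and 321 CPM with IL1β and 511 and 554 CPM at 10 µM (0.70 ± 0.08). Its receptor LIFR rose by 1.04 ± 0.08. IL6 was at 84.4 and 71.4 CPM and then 102 and 102.5 CPM (0.39 ± 0.09), with no difference called between the doses (-0.07 ± 0.09, adjusted p = 0.576). IL11 fell by 1.11 ± 0.12 and CLCF1, another ligand of this family, from 12.6 and 14.5 CPM to 4.05 and 4.3 CPM (-1.69 ± 0.18), under the 8.62 and 9.14 CPM of vehicle. IL18, of the IL1 family, fell by 1.13 ± 0.10. A separate list of IL1 family ligands and receptors, with no tested member below -0.48, had 3 of 11 higher and 2 lower (27.3% and 18.2%). Its median was 0.14, and 1 member was higher in DESeq2.

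Genes of the NF-κB system rose more often than they fell, 10 against 3 of 26 tested (38.5% and 11.5%, median 0.15). The shares of all tested genes were 15.6% and 15.9%. The count that fell was 1 without either IL1β library or 10 µM replicate 1. NFKB2, the p100 subunit, was at 368 and 361.5 CPM with IL1β and 743 and 754 CPM at 10 µM (1.04 ± 0.08, adjusted p = 3.51e-11). The inhibitor NFKBIA rose from 224 and 244 CPM to 381 and 386 CPM (0.71 ± 0.08), and the coactivator BCL3 by 1.13 ± 0.08. TRAF1, a signalling adaptor, went the other way, from 38.6 and 41.0 CPM to 10.6 and 11.5 CPM (-1.85 ± 0.13), and TNFAIP3, a ubiquitin-editing brake, was at -0.11 ± 0.08 (adjusted p = 0.25). Of 20 TNF ligands and receptors 8 rose and 4 fell (median 0.22), with TNFSF10, the death ligand TRAIL, at 1.5 ± 0.15 and TNFRSF12A, the receptor of TWEAK, at -1.67 ± 0.10.

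Acute-phase and C/EBP genes had the highest median of the lists described here, 1.04, with 12 of 16 tested genes higher (75.0%) and 1 lower. The shares of all tested genes were 15.6% and 15.9%. At 1 µM 12 of 16 were also higher than with IL1β and 0 lower (median 0.6), beside 2.03% and 2.56% of all tested genes. Between the doses 7 were higher and 3 lower at 10 µM (median 0.24), beside 13.3% and 13.8% of all tested genes. SAA2, serum amyloid A2, was at 29.9 and 26.7 CPM with IL1β, 75.6 and 73.9 CPM at 1 µM and 125 and 116 CPM at 10 µM, a 4.25-fold rise over IL1β (2.09 ± 0.10, adjusted p = 1.17e-13). The 3 groups did not overlap, and reads of SAA2 could also come from its near-copy SAA1. PTX3, a pentraxin, rose by 1.01 ± 0.08, complement factor CFB by 1.07 ± 0.10 and the transcription factor CEBPB by 0.92 ± 0.08. In prostaglandin synthesis, PTGS2, the inducible cyclooxygenase, was at 45.0 and 46.5 CPM with IL1β and 86.1 and 107 CPM at 10 µM (1.08 ± 0.10). Prostaglandin receptor genes differed, PTGER3 rising by 1.45 ± 0.16 and PTGER4 falling by 1.03 ± 0.11.

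Interferon-stimulated genes were split against IL1β alone and mostly lower than at the smaller dose. Against IL1β the shares were 18.4% higher and 28.6% lower, beside 15.6% and 15.9% of all tested genes. Of 49 tested, 9 rose and 14 fell against IL1β (median -0.17), and the count that fell was 8 without IL1β replicate 2 or 10 µM replicate 1. Tested directly against 1 µM, 33 of 49 were lower and 1 higher (67.3% and 2.04%, beside 13.8% and 13.3% of all tested genes; median -0.48). The 1 µM group itself lay above IL1β alone in this list, with 21 of 49 higher (42.9%) and 0 lower (median 0.36). Of all tested genes 2.03% were higher and 2.56% lower at 1 µM than with IL1β. MX1, an antiviral GTPase, was at 152 and 166.5 CPM with IL1β, 214 and 194 CPM at 1 µM and 96.1 and 101 CPM at 10 µM. The 1 µM libraries were the highest and the 10 µM libraries the lowest of these groups, with -0.70 ± 0.09 against IL1β and -1.05 ± 0.09 against 1 µM (adjusted p = 1.31e-07). IRF1, a transcription factor of the pathway, rose from 33.9 and 39.3 CPM to 95.8 and 90.5 CPM (1.35 ± 0.10).

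Targets of ATF4 and the integrated stress response, which slows translation and raises amino acid and redox genes, gave the highest count of members that rose among the lists. Of 45 tested 30 rose (66.7%, beside 15.6% of all tested genes) and 3 fell, with a median of 0.47 that ranged from 0.46 to 0.53 over the alternatives. Tested against 1 µM, 30 of 45 were higher (beside 13.3% of all tested genes). ATF4 itself was at 296.4 and 295.9 CPM with IL1β, 299 and 260.4 CPM at 1 µM and 473 and 467 CPM at 10 µM (0.67 ± 0.08). CHAC1, an enzyme that degrades glutathione, was at 14.8 and 14.7 CPM with IL1β and 52.6 and 56.6 CPM at 10 µM (1.89 ± 0.14, adjusted p = 1.47e-09), with 23.6 and 19.4 CPM at 1 µM. GDF15, a secreted stress cytokine, went from 9.61 and 11.3 CPM to 32.5 and 37.8 CPM (1.75 ± 0.13). In each of these 3 genes both 10 µM libraries lay above every library of the IL1β, 1 µM and vehicle groups. CTH, which makes cysteine, rose by 1.27 ± 0.11, the pro-apoptotic factor DDIT3 (CHOP) by 0.91 ± 0.13, SESN2 by 0.86 ± 0.10 and TRIB3 by 0.46 ± 0.09. Asparagine synthetase, ASNS, was near 1 CPM and did not pass the test (0.80 ± 0.41, adjusted p = 0.14). It shares 1985 exon bases on the same strand with AC079781.5, so reads of these genes cannot be told apart.

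Of 27 genes of the unfolded protein response, which guards the endoplasmic reticulum, 9 rose and 1 fell (median 0.09; 2 fell without 10 µM replicate 1), with the chaperone DNAJB9 at 0.75 ± 0.09, HERPUD1, of ER-associated degradation, at 0.59 ± 0.08 and the sensor ERN1 at 0.66 ± 0.09. The main ER chaperone HSPA5 was at 1727 and 1706 CPM with IL1β and 1929 and 1971 CPM at 10 µM (0.18 ± 0.08, adjusted p = 0.0347), a call lost without each of the 4 libraries in turn (adjusted p = 0.0705 to 0.18). Heat shock genes gave 3 rises and 3 falls of 24 (median -0.05), or 12.5% each, beside 15.6% and 15.9% of all tested genes. The list had 5 falls in a fit of the 4 libraries alone or with length and GC offsets. HSPA1A, an inducible cytosolic chaperone, was at 189 and 194 CPM and then 315 and 311 CPM (0.71 ± 0.08). Its near-identical copy HSPA1B (0.70 ± 0.08) may share its reads, and the chaperones HSPB8 (-0.83 ± 0.12) and CHORDC1 (-0.45 ± 0.09) fell. HSPA6, an HSP70 induced by strong heat stress that is not on that list, had 16 counts with IL1β and 98 at 10 µM (ratio 5.84, counting interval 3.42 to 10.6).

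Of 32 NRF2 targets 9 rose (28.1%) and 3 fell (9.38%), beside 15.6% and 15.9% of all tested genes. The median was 0.16, and 17 rose with library totals. HMOX1, haem oxygenase 1, was at 12.3 and 13.1 CPM with IL1β, 20.5 and 19.4 CPM at 1 µM and 35.0 and 34.8 CPM at 10 µM (1.46 ± 0.12, adjusted p = 1.77e-09), and the 3 groups were apart. GCLM, of glutathione synthesis, rose by 0.51 ± 0.09, while thioredoxin reductase TXNRD1 fell by 0.60 ± 0.08. Of 28 p53 targets 15 rose and 3 fell (53.6% and 10.7%, median 0.32), with 1 lower without either IL1β library, without 10 µM replicate 2 or with library totals. The cell cycle inhibitor CDKN1A was at 135 and 126 CPM with IL1β and 179.8 and 199.9 CPM at 10 µM (0.54 ± 0.08), and BBC3, the pro-apoptotic PUMA, rose by 0.78 ± 0.13. GDF15 and SESN2 are known as targets of p53 as well as of ATF4, so these lists are not independent. CEBPB is likewise on both the acute-phase and the ATF4 list, and CDKN1A on both the p53 and the G1/S list.

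**Figure D2:**
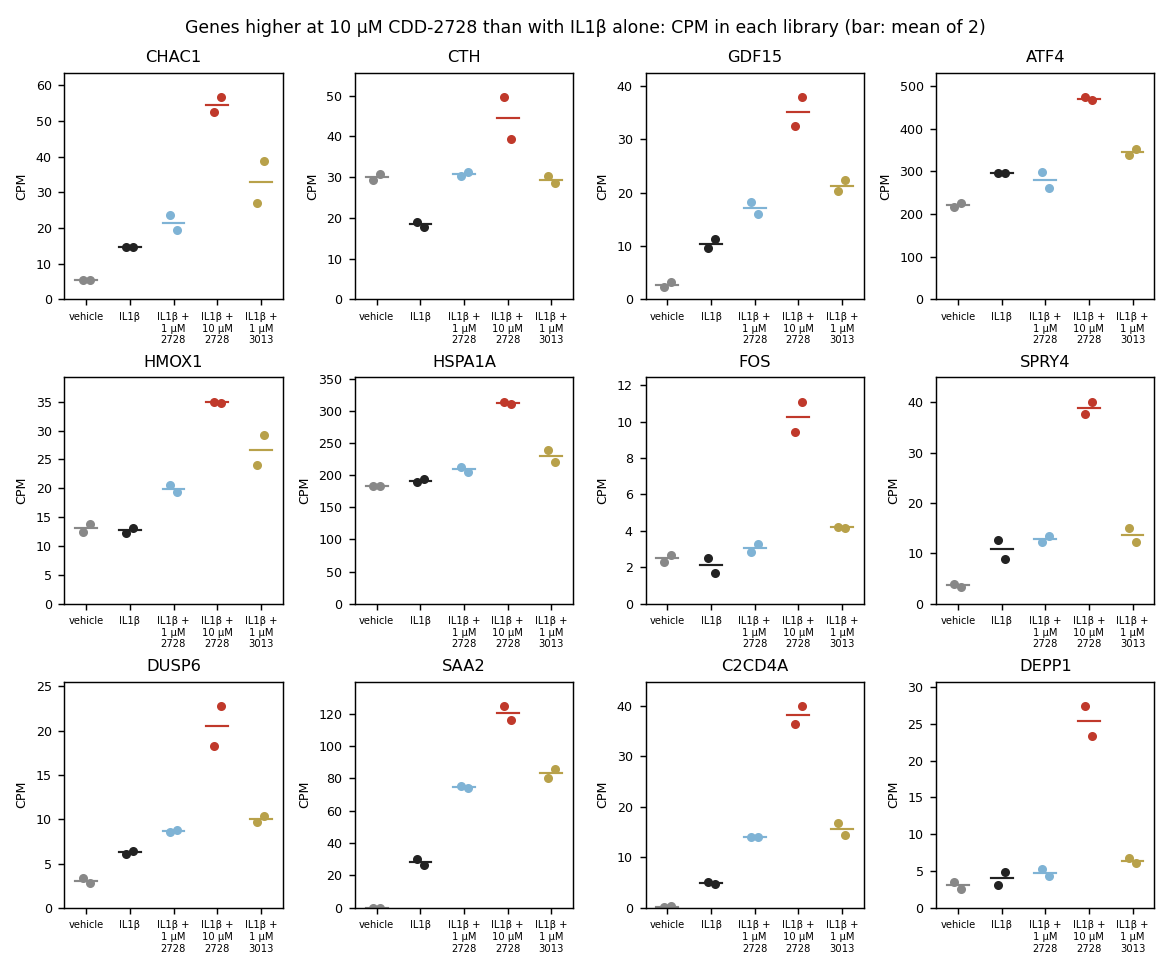
Each panel is 1 gene, the y axis is CPM from 0 on a linear scale, and the 2 points of each treatment group on the x axis are its libraries, with a bar at their mean. In all 12 panels both 10 µM libraries lie above both libraries of the vehicle, IL1β and 1 µM CDD-2728 groups.

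The FOXO and clock lists held more rises than falls, where 15.6% of all tested genes rose and 15.9% fell. Among alpha-arrestins and FOXO targets 11 of 23 tested rose and 2 fell (median 0.32; 1 fell without IL1β replicate 2 or 10 µM replicate 1), with the repressor BCL6 at 67.7 and 71.3 CPM against 25.3 and 26.9 CPM (1.41 ± 0.10). TXNIP, an alpha-arrestin that limits glucose uptake, went the other way, from 18.8 and 25.2 CPM to 4.53 and 5.13 CPM (-2.18 ± 0.20), and vehicle had 26.4 and 34.2 CPM. Of 16 circadian clock genes 9 rose and 2 fell (median 0.51; 1 fell without IL1β replicate 1 or 10 µM replicate 2), with the repressor NR1D1 at 1.22 ± 0.17, the output factor TEF at 1.2 ± 0.15 and PER1 at 0.94 ± 0.11. Of 16 histone genes, measured in poly(A) RNA only, 7 rose (43.8%) and 0 fell (median 0.34, or 0.21 with length and GC offsets). Against 1 µM 3 of them were higher and 1 lower (median 0.03).

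The mitotic list held more falls than rises. Of 34 tested G2/M genes 15 fell (44.1%) and 1 rose (median -0.16; 3 rose with library totals), and against 1 µM 24 were lower (70.6%, beside 13.8% of all tested genes). ANLN, a scaffold of the cleavage furrow, was at 418.5 and 437 CPM with IL1β and 280.3 and 257 CPM at 10 µM (-0.67 ± 0.08, adjusted p = 4.8e-08), under the 397 and 394 CPM of vehicle. The spindle kinase AURKA fell by 0.49 ± 0.08 and the spindle assembly factor TPX2 by 0.39 ± 0.08. CDC25B, a phosphatase that starts mitosis, was the 1 that rose (0.72 ± 0.08). Of 35 G1/S and replication genes 5 rose and 4 fell (median -0.01), with 3 higher without either IL1β library or 10 µM replicate 2, 8 higher with library totals and 8 lower with length and GC offsets. The G1/S shares in the main fit, 14.3% higher and 11.4% lower, were below the 15.6% and 15.9% of all tested genes. CDK6, a kinase that opens the G1/S transition, went from 169 and 155 CPM to 62.4 and 62.9 CPM (-1.37 ± 0.10). The G1/S list also holds cell cycle inhibitors, so its counts do not give the direction of the programme. CDKN1A (0.54 ± 0.08) and CDKN1B (0.50 ± 0.08) were among its rises and CDKN2B (-0.74 ± 0.10) among its falls.

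**Figure D3:**
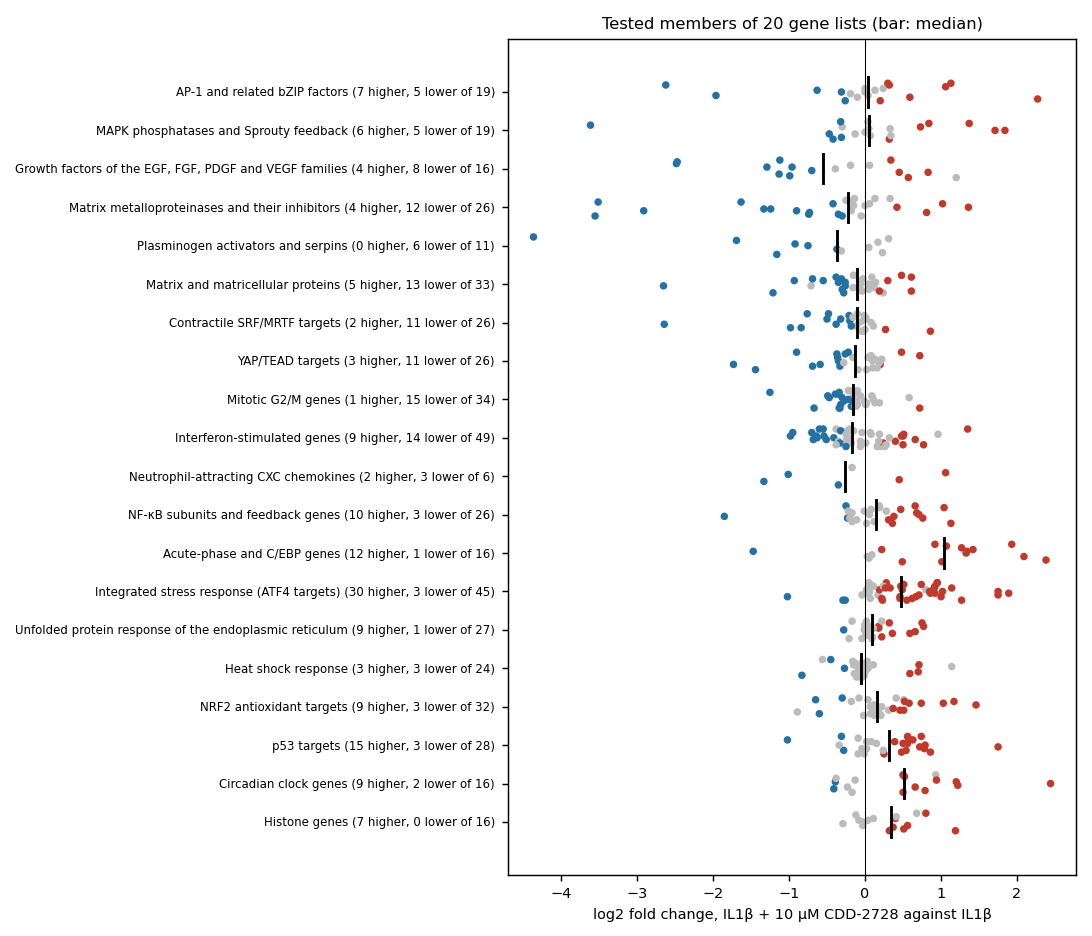
Each row is 1 of 20 gene lists and each point a tested member at its log2 fold change at 10 µM CDD-2728 against IL1β alone (x axis), red where called higher, blue where called lower and grey where neither. Black bars are medians, which run from -0.55 for growth factors to 1.04 for acute-phase and C/EBP genes, beside 0.01 for all tested genes.

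The 12 largest rises were of genes with low levels under IL1β. BNIP5 had 5 counts with IL1β and 243 at 10 µM, a ratio of 46.3 (counting interval 19.6 to 144). C2CD4A, a gene that cytokines induce in islet and other cells, was at 5.14 and 4.77 CPM with IL1β, 13.9 and 13.9 CPM at 1 µM and 36.4 and 39.9 CPM at 10 µM (2.94 ± 0.16, adjusted p = 1.68e-13), and its paralogue C2CD4B rose by 3.57 ± 0.27. DLL4, a Notch ligand, went from 0.782 and 0.69 CPM to 5.87 and 7.34 CPM (3.15 ± 0.36). DEPP1, a FOXO-regulated gene, was at 3.13 and 4.83 CPM with IL1β, 5.29 and 4.26 CPM at 1 µM and 27.5 and 23.3 CPM at 10 µM (2.69 ± 0.19). Others were PPP1R32 (3.24 ± 0.57), WFDC12 (2.97 ± 0.62), MATN4 (2.81 ± 0.30), SCART1 (2.64 ± 0.34), the phosphodiesterase PDE7B (2.59 ± 0.26) and HSPA6 (2.54 ± 0.50). BNIP5 and WFDC12 had 0 counts in vehicle.

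Some of these genes share exons with a neighbour, and the strand setting of the counting is not given in the sources used here. Reads of TNC cannot be told from those of DEC1 over 129 bases, of DEPP1 from RASSF4 over 695, of MATN4 from RBPJL over 77 and of SERPINB2 from SERPINB10, on the same strand, over 547. Same-strand overlaps also join CFB with AL645922.1 over 2249 bases and TGFB2 with TGFB2-OT1 over 1371. JUNB, MMP3 and PDE7B overlap an exon on the other strand, and ROS1, PPP1R32, MIR155HG, SAA2, HSPA1B, TAB2, ACTN1, DDIT3, CXCL6 and PER1 one on the same strand. On the other strand, DUSP6 shares 1875 bases with AC024909.2, IRF1 1716 with C5orf56 and SQSTM1 1582 with MRNIP. MAPK10, which had few counts, shares 999 with ARHGAP24, and FGF2 shares 804 with NUDT6. Further genes named here also overlap a neighbour and are not listed.

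The doses were compared directly to ask where 10 µM differed from 1 µM. Between the doses 2093 of 15740 genes were higher (13.3%) and 2169 lower (13.8%) at 10 µM, 530 (3.37%) and 145 (0.921%) of them by at least 2-fold, or 155 and 62 among genes reaching 5 CPM in 2 or more libraries. Of those calls 49.1% were higher with TMM scaling and 66.9% with library totals. Leaving out 10 µM replicate 1 gave 1330 and 1339, 10 µM replicate 2 gave 1329 and 1393, and 1 µM replicate 1 gave 1389 higher. Genes higher by at least 2-fold numbered 345 without 10 µM replicate 1. The largest falls and rises were chosen on the 10 µM libraries that also enter this comparison, which favours their direction, so their differences between the doses are a description. Among the falls they ran from -4.22 ± 0.47 (MMP13) to -0.20 ± 0.26 (CREB5). CREB5 was at 2.37 and 4.32 CPM at 1 µM (adjusted p = 0.616). JUND, at 253.5 and 233 CPM at 1 µM, gave -0.05 ± 0.08 (adjusted p = 0.659). For both genes a p above the threshold does not show that the doses act alike. Among the rises WFDC12 was not called (0.79 ± 0.41, adjusted p = 0.161).

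**Figure D4:**
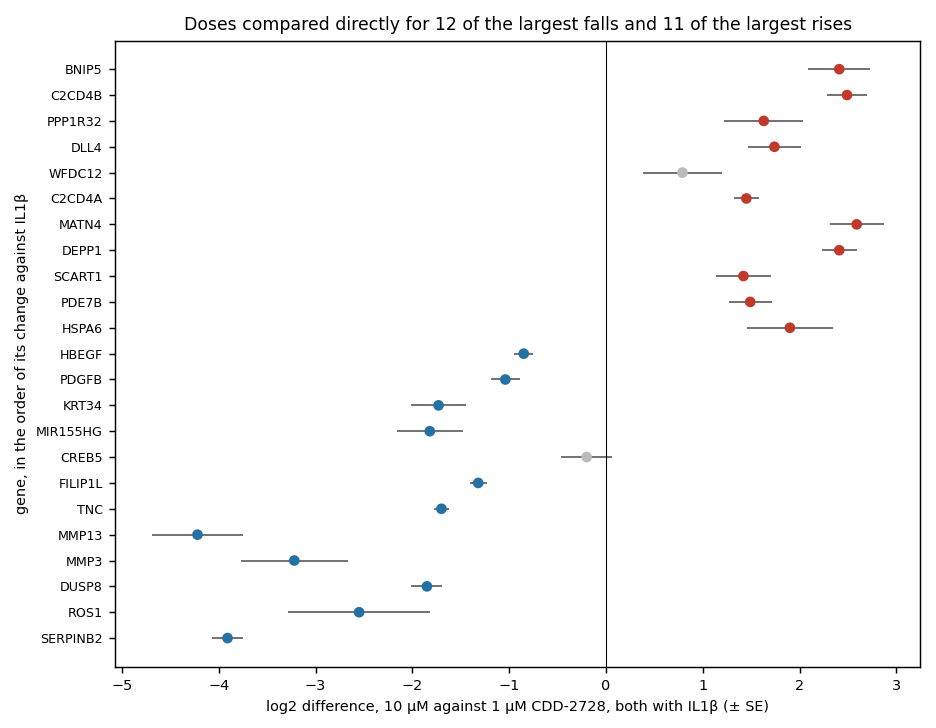
The x axis is the log2 difference between 10 µM and 1 µM CDD-2728, both with IL1β, for the 12 largest falls and 11 of the 12 largest rises at 10 µM against IL1β (y axis, in the order of that change), with bars of ± SE. MMP13 (-4.22) and SERPINB2 (-3.91) lie farthest to the left, and CREB5 and WFDC12, in grey, did not pass the test.

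Against vehicle, which shows where the cells stood with IL1β and the compound together, 2868 genes were higher (18.2%) and 2586 lower (16.4%). Of these calls 52.6% were higher with TMM scaling and 33.8% with library totals, which moved the median of all genes to -0.12. Without 10 µM replicate 2 the lower count was 1663. All 16 tested acute-phase and C/EBP genes, 23 of 26 NF-κB genes and all 6 neutrophil-attracting chemokines were called higher than vehicle. IL6 had 5 counts in vehicle and 3624 at 10 µM, a ratio of 843 (counting interval 361 to 2.6e+03). DUSP8, JUN, HBEGF, PDGFB, FILIP1L, TGFB2, TNFRSF12A, CLCF1, AJUBA and TXNIP were among the genes called lower than vehicle. TGFB2, a ligand of the TGF-β receptors, was at 33.5 and 37.3 CPM with IL1β, 10.8 and 10.5 CPM at 10 µM and 14.2 and 15.5 CPM in vehicle (-0.47 ± 0.13 against vehicle).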

How the data were processed

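Poly(A) RNA of 10 samples of 12Z cells was sequenced. Tools named in the submitters' processing notes are featureCounts, STAR and fastp, with build hg38, while their versions and the strand setting are not given. Raw counts of 62750 gene IDs were deposited as a single table, and symbols were matched for 61918 with their version and 754 without it. Coordinates came from GENCODE 29 (58323 IDs). Of the 15740 tested genes 11220 had a RefSeq promoter.

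The deposited counts were filtered (filterByExpr by group, minimum count 10), scaled with TMM and fitted with edgeR 4.0.16 (quasi-likelihood, robust, all 10 libraries, 5 residual degrees of freedom, no replicate term) in R 4.3.3. Each group had 2 libraries. P-values were adjusted by Benjamini-Hochberg over all tested genes, with a threshold of 0.05, and every adjusted p printed comes from this fit unless another is named. CPM are scaled by TMM. SEs are Wald values from the quasi-likelihood variance, not below counting error. Replicates differed by more than counting error (chi-square per degree of freedom 2.66 for IL1β, 4.14 for 10 µM, 5.11 for vehicle and 8.23 for 1 µM CDD-2728). The 3 comparisons of 10 µM, with IL1β, vehicle and 1 µM, share libraries, so their calls are not independent.

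Named genes are the 12 largest changes in each direction (at least 2 CPM, libraries apart, no clones, antisense genes or pseudogenes), up to 4 members of each of 42 gene and 5 marker lists with the smallest adjusted p, and fixed genes and controls. The members and lists were chosen with earlier results of these data known, so no list was tested. Counting intervals are exact, at 95%. The count model was run on simulated data drawn with a single spread shared by all genes and groups, so its error rate in these data is not known. Alternatives were other scalings and filters, DESeq2 1.42.0, the 4 libraries alone, a replicate block, length and GC offsets, and each library left out. Some named genes are not reported here.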

Additional observations from a re-analysis of the deposited data

How the results depend on the processing

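Most named genes were picked by their change or adjusted p at 10 µM against IL1β, which favours keeping a call. Of 228 named genes 200 were called in that comparison. Of these 182 kept their call in all 12 alternative settings, 18 lost it in at least 1 and none reversed; 6 of the 18 lost it in a setting other than leaving out a library. Leaving out each library in turn gave 1567 to 1816 genes higher and 1638 to 1788 lower against IL1β, 2227 to 2344 and 1663 to 1936 against vehicle, and 1329 to 1828 and 1339 to 2202 against 1 µM. In these fits the group with 1 library left is assumed to vary like the others. Where only the 11057 genes that reach 5 CPM in 2 or more libraries were tested, the counts of at least 2-fold were 238 higher and 115 lower against IL1β, 525 and 168 against vehicle, and 155 and 62 against 1 µM. With library totals 4126 genes were lower than vehicle and 1398 lower than at 1 µM. Against 1 µM, genes higher by at least 2-fold numbered 351 in DESeq2 and 345 to 524 with each library left out. DESeq2 called 1957 higher and 2146 lower against IL1β. Of all 4959 calls of the main fit against IL1β, named or not, 82.6% were kept in DESeq2 and 88.1% with library totals.

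The replicate numbers do not pair the samples by the labels. Deviations of same-numbered libraries had a correlation of 0.06 between the IL1β and 10 µM groups and of -0.22 to 0.13 over all pairs of groups. With the replicate block 2356 genes were higher and 2420 lower against IL1β, 4756 of the 4959 calls were kept and no named gene changed its call. With 2 libraries a group, genes of few counts, such as ROS1, MMP10 and BNIP5, are limited by counting error.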

Other observations

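Several further lists were measured at 10 µM CDD-2728 against IL1β alone. TGF-β, activin and BMP genes moved both ways, with 13 of 35 tested higher (37.1%) and 14 lower (40.0%), beside 15.6% and 15.9% of all tested genes. INHBA, which encodes the activin A subunit, went from 30.6 and 28.3 CPM to 6.29 and 6.21 CPM (-2.24 ± 0.15, edgeR, adjusted p = 2.93e-11). PMEPA1, a feedback target of TGF-β, fell by 1.10 ± 0.09. ID1, a target of BMP signalling, rose from 87.9 and 97.4 CPM to 305 and 318 CPM (1.75 ± 0.09), with 190.5 and 155 CPM at 1 µM. In the WNT and Notch list 8 of 32 rose and 7 fell. The WNT inhibitor DKK1 fell by 1.56 ± 0.13, the receptor NOTCH2 by 0.69 ± 0.08, and the receptor FZD1 rose by 1.07 ± 0.14. The count that rose was 4 without either IL1β library and 5 without 10 µM replicate 1, where 4 fell, and 5 in DESeq2.

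In glycolysis and hypoxia 7 of 36 rose (19.4%) and 5 fell (13.9%), beside 15.6% and 15.9% of all tested genes. The glucose transporter SLC2A3 went from 54.3 and 56.5 CPM to 168 and 185 CPM (1.68 ± 0.09) and hexokinase HK2 rose by 1.02 ± 0.08. The count that fell was 3 without IL1β replicate 2 and 8 with length and GC offsets. Of 35 cholesterol and fatty acid genes 10 fell and 5 rose, and 3 fell without IL1β replicate 1 or 10 µM replicate 2, 6 with library totals. The count that rose was 1 without IL1β replicate 2 and 3 without each of the other 3 libraries. In the aryl hydrocarbon receptor list 4 of 11 rose and 2 fell. AHR, which shares 2373 exon bases with AC019117.2 on the same strand, rose by 0.77 ± 0.11, CYP1B1 fell by 0.93 ± 0.08, and TDO2, which degrades tryptophan, was at 2.07 and 2.7 CPM with IL1β, 13.6 and 10.9 CPM at 1 µM and 6.45 and 8.0 CPM at 10 µM. TDO2 was thus higher than with IL1β (1.6 ± 0.22) and lower than at 1 µM (-0.77 ± 0.17). Of the BCL2 family and apoptosis regulators 6 of 24 rose and 5 fell (3 without 10 µM replicate 1), with the pro-apoptotic BCL2L11 at 0.92 ± 0.12 and the pro-survival BCL2L2, which overlaps BCL2L2-PABPN1, at -0.86 ± 0.14. In the steroid hormone list 3 of 17 rose (17.6%) and 2 fell (11.8%, 1 in DESeq2), near the 15.6% and 15.9% of all tested genes. The glucocorticoid receptor NR3C1 fell by 0.51 ± 0.08, and TSC22D3, its leucine zipper target, rose by 1.51 ± 0.14. Of 30 lysosome and autophagy genes 9 rose and 3 fell (1 without IL1β replicate 2 or 10 µM replicate 1), and the autophagy receptor SQSTM1 rose by 0.66 ± 0.08. Of 79 cytosolic ribosomal protein genes 4 rose and 0 fell (median 0.10), and 30 rose in a fit of the 4 libraries alone, 14 without a filter, 10 with library totals and 0 without IL1β replicate 1 or 10 µM replicate 2.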
